A study of Homo sapiens with 5 samples.

Results

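The spindle checkpoint and kinetochore genes form a set of 43 genes, listed by their known roles and chosen with earlier results of these data known. All 43 had a row among the 17297 genes of the deposited table of ribosome-protected fragment counts. The table holds HCT116 cells, an established human colorectal carcinoma line, in 2 groups. The MUT group (3 libraries) carried eIF6 N106S, an asparagine-to-serine change made homozygous by CRISPR/Cas9 editing, and the WT group (2 libraries) was wild type at eIF6; no drug or other agent is given for either. eIF6 binds the large ribosomal subunit and keeps it from joining the small one, and the series title links its targeting to the exit from mitosis. The protocol speaks of mutant clones without saying which clone gave which library, so an effect of the mutation cannot be told apart from other differences between edited and unedited cells.

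The kinetochore is the protein assembly that joins each chromosome to spindle microtubules. Its inner layer sits on chromatin that carries the histone variant CENP-A, its outer KMN network (the KNL1, MIS12 and NDC80 complexes) grips microtubules, and a fibrous corona forms outside these on chromosomes that are not yet attached. Unattached kinetochores recruit checkpoint kinases and MAD proteins, which hold back the anaphase-promoting complex until all chromosomes are attached. Many of these genes are expressed mainly in the G2 and M phases of dividing cells, so in a bulk extract fewer cells in those phases and fewer footprints per cell cannot be told apart.

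Library totals were 3076137, 3755991 and 3821176 counts in MUT replicates 1, 2 and 3, and 2095217 and 3128144 in WT replicates 1 and 2. Single counts of the set ran from 20 (CENPT, WT replicate 1) to 2307 (CENPF, WT replicate 2), and standard errors of the log2 fold changes from 0.0913 (BUB3 and MAD2L1) to 0.308 (CENPT). Of 12 colon epithelial marker genes with a row, summed levels were 1193 to 1504 CPM (counts scaled to an equal library total by TMM normalisation) in MUT and 1147 to 1241 CPM in WT libraries, although the intestinal genes VIL1 and CDX1 were at or near 0 in all of them. The keratins carry that sum: of 10 tested markers KRT8 and KRT19 rose (1.3-fold and 1.22-fold), and EPCAM, CDH1 and CLDN7 fell (1.41-fold, 1.87-fold and 1.48-fold). Markers of other cell types summed to 35.8 to 40.1 CPM in MUT and 34.3 to 44.9 CPM in WT over 17 genes. EIF6 itself had 157 ± 10.7 CPM in MUT (SD, n = 3) and 178 ± 9.16 CPM in WT (SD, n = 2), and 1 changed residue need not alter that count.

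Footprints on 20 genes of the set were lower in MUT cells. In edgeR's quasi-likelihood test across 11991 genes, with Benjamini-Hochberg adjustment over all of them, 20 of the 43 genes (46.5%) fell at an adjusted p under 0.05, where 12.9% of all tested genes fell. CENPO alone rose (2.33% of the set), where 10.0% of all tested genes rose, and 22 genes did not pass. Over all tested genes 1203 rose and 1544 fell, a balance that depends on the scaling: upper-quartile scaling gave 1558 and 1209, and library size only 1756 and 1040. The falls were moderate, between 1.22-fold (BUB1B) and 2.01-fold (CENPH). The median log2 fold change (MUT over WT) was -0.30 over the set and 0.00 over all tested genes. Because the set was chosen with earlier results of these data known, these shares and medians describe it and do not test it. All MUT libraries lay below both WT libraries for 25 genes (58.1%, against 25.3% of all tested genes) and above them for 4 (9.3%, against 25.4%).

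**Figure D1:**
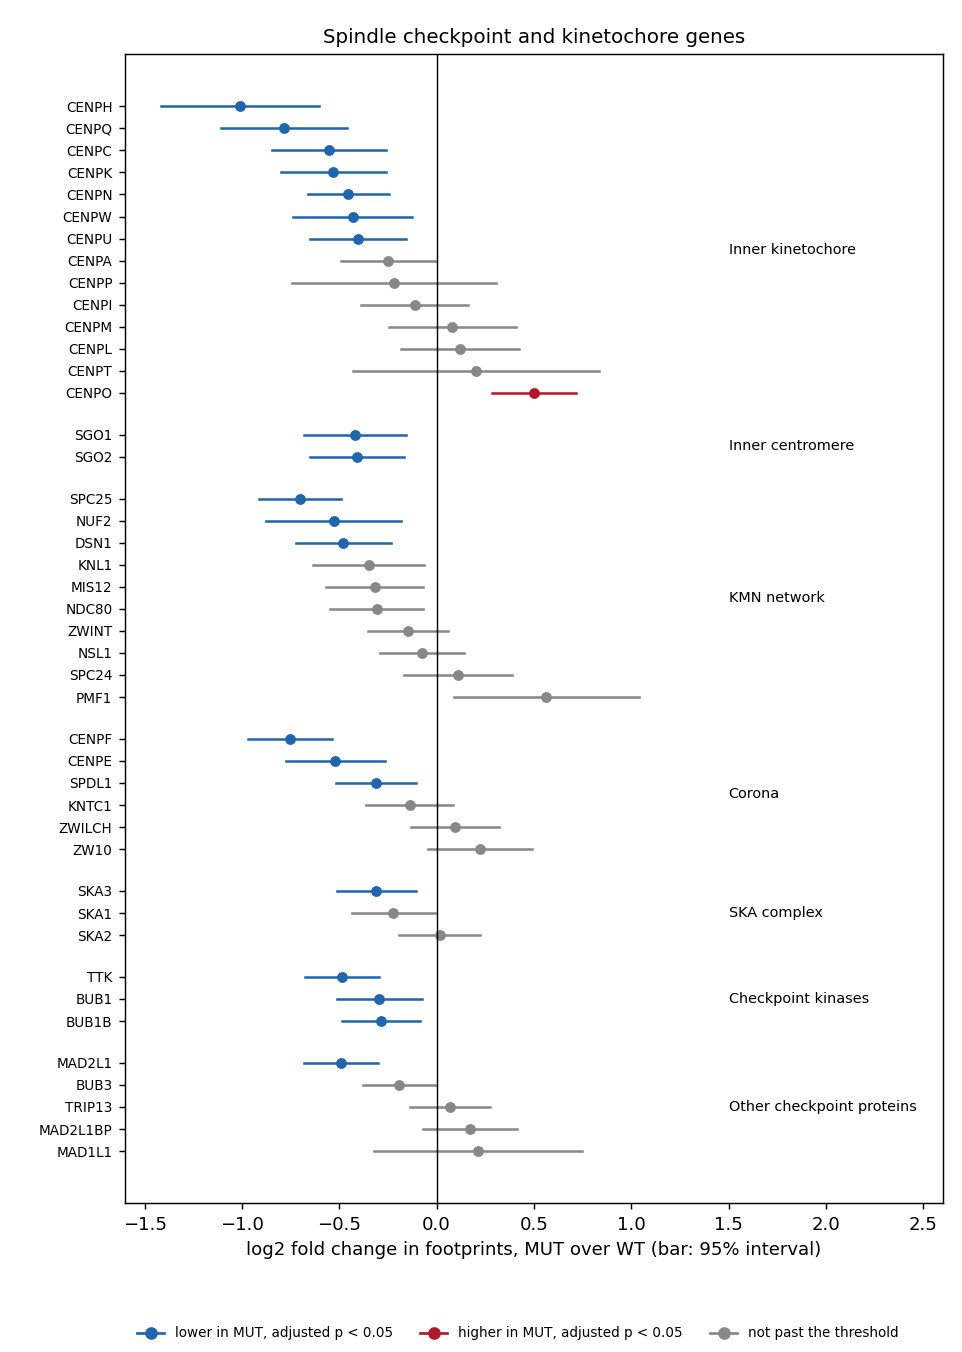
Log2 fold change in footprints, MUT over WT, for each of the 43 genes (points) with its 95% interval (bars), grouped by place in the kinetochore. Blue points passed the threshold below 0 (20 genes), the red point above 0 (CENPO, 0.50), and grey points (22 genes) did not pass.

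The number of calls depended on single libraries. Without WT replicate 2 the set's median log2 fold change was -0.17, and without WT replicate 1 it was -0.39. Each of these fits leaves 1 WT library, and fewer genes fell in each, both in the set and over all genes. Without MUT replicate 1 the number of genes of the set that fell was 13, all among the 20. DESeq2 called 10 of the 20, and scaling by library size only called 13 of them. Calls of lower genes dropped over all genes too, from 1544 in the main fit. They numbered 908 without MUT replicate 1, 846 with DESeq2 and 1040 with library size only. Whether the set lost calls faster or slower than all genes was not tested. All 20 kept a log2 fold change below 0 in each of the 15 alternative fits, some by little (up to -0.06 for BUB1 and -0.10 for SGO2). They were picked for falling in the main fit to the same counts, so that sign was largely set by the choice. CENPF, CENPN, SPC25, MAD2L1 and TTK stayed below the threshold on adjusted p in all 15, as did CENPO on the rising side.

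**Figure D2:**
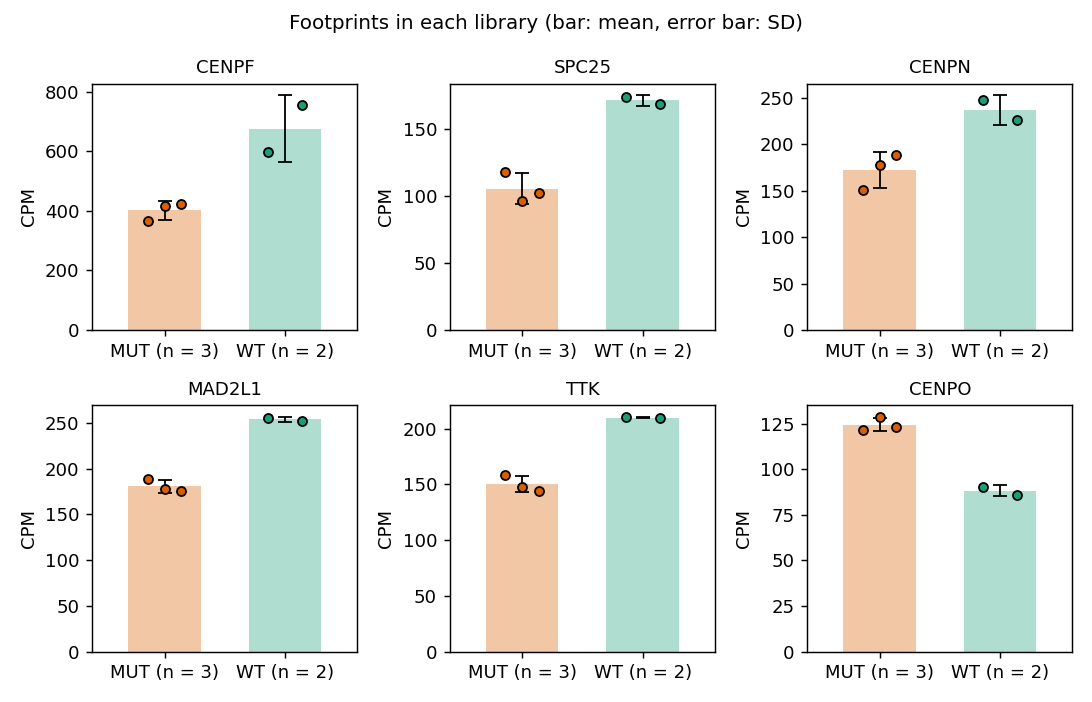
CPM in each MUT (n = 3) and WT (n = 2) library for the 6 genes that passed the threshold in every fit, with bars for the mean and error bars for the SD. The 3 MUT libraries lie below both WT libraries for CENPF, SPC25, CENPN, MAD2L1 and TTK, and above them for CENPO.

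WT replicate 2 was above WT replicate 1 for 26 of the 43 genes and for 13 of the 20 that fell, with a median log2 difference of 0.10 over the set. The gap was widest for KNL1, CENPP, NUF2 and SGO2, in that order, and WT replicate 2 was the higher in each. As a share of all counts, the set held 0.428% (95% exact binomial interval 0.421% to 0.436%), 0.444% (0.437% to 0.451%) and 0.431% (0.424% to 0.438%) in MUT replicates 1 to 3. It held 0.482% (0.473% to 0.492%) and 0.541% (0.533% to 0.549%) in WT replicates 1 and 2. The intervals cover counting error only. The 2 WT libraries thus differed from each other by more than the lowest of them differed from the highest MUT library.

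**Figure D3:**
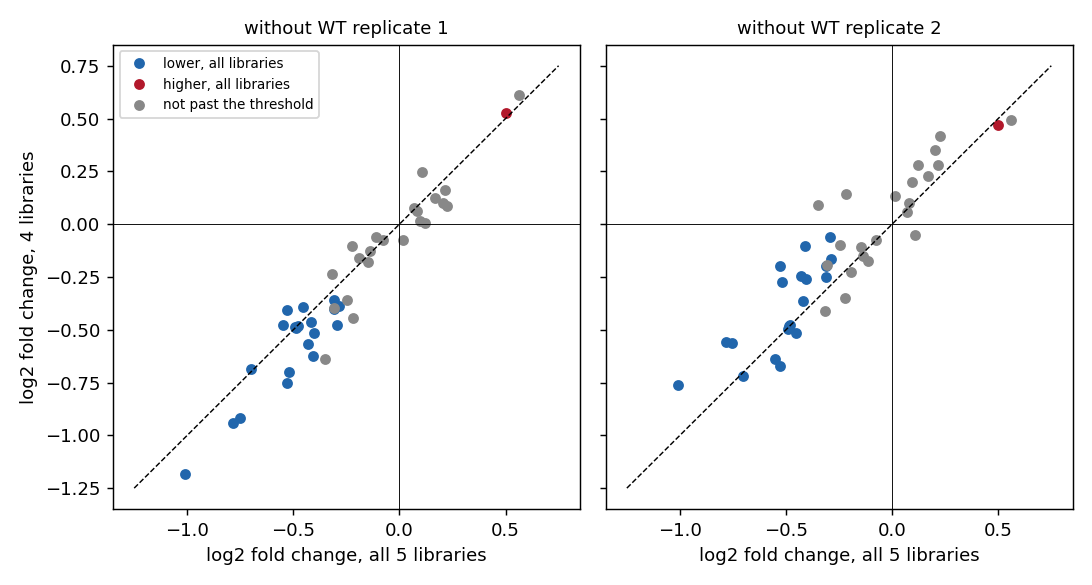
Log2 fold change of each gene with all 5 libraries (x axis) against that without WT replicate 1 (left) or without WT replicate 2 (right), with the dashed line marking equal values. All 20 genes that fell stay below 0 in both panels, and without WT replicate 2 15 of them lie above the line, closer to 0.

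Many cell-cycle genes carry, near their start, the cell cycle genes homology region (CHR), a short element read by the MuvB complexes that hold such genes off in resting cells and turn them on in G2 and M, often with CCAAT boxes upstream. RefSeq promoters (GRCh38.p14, 250 bases before to 50 after the start) were held for 36 of the 43 genes. TTTGAA, searched on both strands, was in 15 of these 36 (41.7%), in 9.43% of 9764 tested genes with a promoter and in 15.4% of all 27305 promoters. CCAAT on either strand was in 21 (58.3%), against 37.2% of tested genes and 35.7% of all promoters. The E2F-type letters TTTGGCG on either strand were in 2 (5.56%, NDC80 and ZWILCH), against 3.09% and 1.92%. No match to 1 motif shared bases with a match to another in these promoters. TTTGAA was in 9 of 18 promoters of genes that fell and in 6 of 18 of the rest, and these matches are a description of letters in a window.

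The promoters of the genes called in every fit are shown because these genes kept their call in all 15 alternatives (TTK had no entry). They read 5′ to 3′ on the strand of the gene, with matches to the CHR letters and the CCAAT box, on either strand, in capitals. CENPF lies at chr1:214602945-214603244 on the plus strand, SPC25 at chr2:168890381-168890680 on the minus strand, CENPN at chr16:81006964-81007263 on the plus strand, MAD2L1 at chr4:120066799-120067098 on the minus strand and CENPO at chr2:24793175-24793474 on the plus strand. In CENPF, CENPN, SPC25 and MAD2L1, which fell, and in CENPO, which rose, TTTGAA stood near the start, and CENPO had no CCAAT.
CENPF: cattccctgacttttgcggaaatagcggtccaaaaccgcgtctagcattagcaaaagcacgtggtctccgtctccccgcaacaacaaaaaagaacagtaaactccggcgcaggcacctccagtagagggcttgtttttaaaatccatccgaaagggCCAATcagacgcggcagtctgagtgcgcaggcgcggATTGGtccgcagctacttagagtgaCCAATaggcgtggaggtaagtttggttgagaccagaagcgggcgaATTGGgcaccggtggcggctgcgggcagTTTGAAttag
SPC25: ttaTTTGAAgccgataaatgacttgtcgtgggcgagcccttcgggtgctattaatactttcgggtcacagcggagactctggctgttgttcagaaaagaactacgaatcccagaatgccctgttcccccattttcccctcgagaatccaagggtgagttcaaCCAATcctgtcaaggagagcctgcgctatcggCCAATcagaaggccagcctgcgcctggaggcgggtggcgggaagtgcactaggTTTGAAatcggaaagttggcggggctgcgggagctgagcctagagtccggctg
CENPN: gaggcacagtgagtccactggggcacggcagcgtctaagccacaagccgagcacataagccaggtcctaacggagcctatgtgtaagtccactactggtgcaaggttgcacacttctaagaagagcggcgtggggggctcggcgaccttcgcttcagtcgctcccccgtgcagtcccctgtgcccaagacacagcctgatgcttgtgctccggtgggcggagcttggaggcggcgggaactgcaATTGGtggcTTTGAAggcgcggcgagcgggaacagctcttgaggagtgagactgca
MAD2L1: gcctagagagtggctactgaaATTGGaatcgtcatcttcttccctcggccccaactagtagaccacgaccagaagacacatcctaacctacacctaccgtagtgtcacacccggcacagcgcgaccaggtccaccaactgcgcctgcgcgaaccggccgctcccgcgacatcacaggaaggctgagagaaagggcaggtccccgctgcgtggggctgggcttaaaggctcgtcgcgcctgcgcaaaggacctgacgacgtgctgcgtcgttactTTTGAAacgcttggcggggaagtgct
CENPO: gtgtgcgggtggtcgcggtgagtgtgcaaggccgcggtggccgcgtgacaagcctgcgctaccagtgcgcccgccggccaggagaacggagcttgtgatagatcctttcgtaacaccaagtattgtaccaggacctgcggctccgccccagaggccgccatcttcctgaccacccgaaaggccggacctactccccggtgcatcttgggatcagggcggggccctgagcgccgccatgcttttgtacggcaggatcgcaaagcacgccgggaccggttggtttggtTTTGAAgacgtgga

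The inner kinetochore, the largest class, had the widest range of log2 fold changes (-1.01 to 0.50), and a range tends to widen with the number of genes. Of its 14 genes 7 fell, 1 rose and 6 did not pass, where 12.9% of all tested genes fell and 10.0% rose. The class median log2 fold change was -0.33. Classes of so few genes were not tested against these shares or each other. CENPA, the histone variant that marks the centromere, had 69.0, 69.5 and 67.5 CPM in MUT and 73.9 and 87.6 CPM in WT, a log2 fold change of -0.25 (SE 0.118, edgeR adjusted p = 0.133). Its MUT libraries were all below its WT libraries, by little in WT replicate 1. CENPC, which ties that nucleosome to the outer complexes, had 36.3, 35.0 and 37.7 CPM in MUT and 56.9 and 50.4 CPM in WT. It fell 1.47-fold (edgeR adjusted p = 0.00683), with no overlap between the groups, and lost its call without WT replicate 1 (0.0665) and with DESeq2 (0.0576).

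The CENP-H, CENP-I, CENP-K and CENP-M proteins form one block of the inner layer. CENPH had the largest fall of the set, with 24.2, 25.3 and 15.1 CPM in MUT and 36.5 and 48.4 CPM in WT (log2 fold change -1.01, SE 0.196, edgeR adjusted p = 0.000754). MUT replicate 3 was the lowest library, and the groups did not overlap. CENPK had 50.3, 45.8 and 46.7 CPM in MUT and 75.9 and 62.8 CPM in WT, a 1.44-fold fall (edgeR adjusted p = 0.00521). The other members of the block did not pass: CENPI had 47.4 to 53.6 CPM in MUT and 52.6 to 57.4 CPM in WT, with a 95% interval of its log2 fold change from -0.39 to 0.16. CENPM had 34.1 to 35.3 CPM in MUT and 32.5 to 33.0 CPM in WT, with an interval from -0.24 to 0.41. Leaving out WT replicate 2 put CENPH at an adjusted p of 0.0912, and leaving out WT replicate 1 put CENPK at 0.0846, both past 0.05.

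CENP-L and CENP-N form a dimer that reads the CENP-A nucleosome. CENPN had 151, 178 and 188 CPM in MUT and 248 and 226 CPM in WT, and fell 1.37-fold (edgeR adjusted p = 0.00244). Its partner CENPL had 41.7, 44.0 and 42.9 CPM in MUT and 35.5 and 42.5 CPM in WT, with a log2 fold change of 0.12 (interval -0.18 to 0.42). The groups of CENPN stood apart and those of CENPL overlapped. CENPT, whose long arm recruits the NDC80 complex, pairs with CENPW through histone folds. CENPW had 56.0, 59.2 and 41.1 CPM in MUT and 61.9 and 76.5 CPM in WT and fell 1.35-fold (edgeR adjusted p = 0.0367), a call that ended without WT replicate 2 (0.482), MUT replicate 1 (0.0707) or MUT replicate 3 (0.154), and with DESeq2 (0.173), upper-quartile scaling (0.0578) or library size only (0.0819). CENPT had 8.21 to 17.8 CPM in MUT and 9.99 to 11.8 CPM in WT, the fewest counts of the set, and an interval from -0.43 to 0.84, which overlaps that of CENPW (-0.74 to -0.13).

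The CENP-O group, which docks the mitotic kinase PLK1, held changes in both directions. CENPO had 122, 129 and 123 CPM in MUT and 90.4 and 86.0 CPM in WT, a log2 fold change of 0.50 (SE 0.105, edgeR adjusted p = 0.00138). All 3 MUT libraries were higher. ADCY3, a protein-coding gene that overlaps CENPO, had 24.1 ± 2.95 CPM in MUT (SD, n = 3) and 21.1 ± 7.62 CPM in WT (SD, n = 2), with an adjusted p of 0.444. CENPQ had 30.2, 31.6 and 26.4 CPM in MUT and 43.4 and 56.2 CPM in WT, and fell 1.72-fold (edgeR adjusted p = 0.00104). CENPU, the subunit that PLK1 binds, had 72.5, 68.5 and 62.4 CPM in MUT and 81.4 and 96.1 CPM in WT, and fell 1.32-fold (edgeR adjusted p = 0.0167). CENPP, the direct partner of CENPO, had 11.5 to 16.9 CPM in MUT and 12.5 to 18.6 CPM in WT, and its interval ran from -0.74 to 0.31. Without WT replicate 2, CENPQ (0.0959) and CENPU (0.305) lost their calls, and CENPU did so without MUT replicate 3 (0.0552) and with DESeq2 (0.102) too.

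At the inner centromere, both shugoshins fell, where 12.9% of all tested genes fell. Shugoshins guard cohesion between sister centromeres until anaphase. SGO1 had 62.3, 56.4 and 74.7 CPM in MUT and 83.4 and 88.6 CPM in WT, and fell 1.34-fold (edgeR adjusted p = 0.0192). SGO2 had 94.2, 97.4 and 98.3 CPM in MUT and 104 and 148 CPM in WT, and fell 1.33-fold (edgeR adjusted p = 0.0145). Neither gene's groups overlapped, and WT replicate 2 held SGO2's widest gap. SGO1 lost its call without any 1 of WT replicate 1 (0.0596), WT replicate 2 (0.201), MUT replicate 1 (0.0794) or MUT replicate 2 (0.0828). SGO2 lost it without WT replicate 2 (log2 fold change -0.10, 0.667) or MUT replicate 1 (0.0706), neither gene passed with DESeq2 (0.102 for SGO1 and 0.0814 for SGO2), and SGO1 did not with library size only (0.053).

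In the KMN network 3 of 10 genes fell and none rose (12.9% of all tested genes fell and 10.0% rose), with a class median of -0.31. The NDC80 complex is a long rod: NDC80 and NUF2 hold its microtubule-binding end, and SPC24 and SPC25 its kinetochore end. SPC25 had 118, 96.1 and 102 CPM in MUT and 174 and 168 CPM in WT, a log2 fold change of -0.70 (SE 0.102, edgeR adjusted p = 3.58e-05). SPC24, with which SPC25 pairs, had 56.6, 56.6 and 60.8 CPM in MUT and 60.4 and 48.7 CPM in WT, with an interval from -0.17 to 0.38. The interval of SPC25, from -0.91 to -0.49, lies wholly below that of SPC24. NUF2 had 40.7, 56.4 and 36.7 CPM in MUT and 51.4 and 74.9 CPM in WT and fell 1.44-fold (edgeR adjusted p = 0.0251) although MUT replicate 2 exceeded WT replicate 1. NDC80 had 69.8 to 78.3 CPM in MUT and 83.9 to 95.8 CPM in WT, with no overlap and an adjusted p of 0.0555. NUF2 lost its call without WT replicate 2 (-0.20, 0.635), MUT replicate 1 (0.119) or MUT replicate 3 (0.106), and with DESeq2 (0.131) or library size only (0.052).

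The MIS12 complex joins the inner layer to the rest of the network. Its subunit DSN1, which the kinase AURKB acts on, had 73.2, 66.4 and 59.3 CPM in MUT and 92.4 and 91.9 CPM in WT, and fell 1.39-fold (edgeR adjusted p = 0.00516). The groups stood well apart, yet the call ended without WT replicate 2 (0.0659). MIS12 had 60.4 to 66.2 CPM in MUT and 73.6 to 83.9 CPM in WT (adjusted p 0.0583), and NSL1 had 98.3 to 114 CPM in MUT and 114 to 115 CPM in WT (0.643). PMF1 was the one subunit whose MUT libraries were all above WT, at 21.9, 17.1 and 20.01 CPM in MUT and 13.98 and 12.8 CPM in WT. Its log2 fold change of 0.56 (interval 0.09 to 1.04) had an adjusted p of 0.0799 in edgeR's test. The annotation holds a readthrough transcript, PMF1-BGLAP, whose row had 47.3 ± 1.51 CPM in MUT (SD, n = 3) and 39.4 ± 11.3 CPM in WT (SD, n = 2), and the sources name no rule for reads that fit both.

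KNL1 is the scaffold on which TTK writes the docking sites for the BUB proteins, and ZWINT binds it. KNL1 had 103, 133 and 117 CPM in MUT and 111 and 183 CPM in WT, with a log2 fold change of -0.35 (edgeR adjusted p = 0.0681). WT replicate 1 lay among the MUT libraries and WT replicate 2 far above them. KNL1 passed without WT replicate 1 (-0.64, 0.00444) and had 0.09 (0.755) without WT replicate 2, so a single library decides its value. ZWINT had 110 to 120 CPM in MUT and 123 to 128 CPM in WT, with an interval from -0.35 to 0.06.

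**Figure D4:**
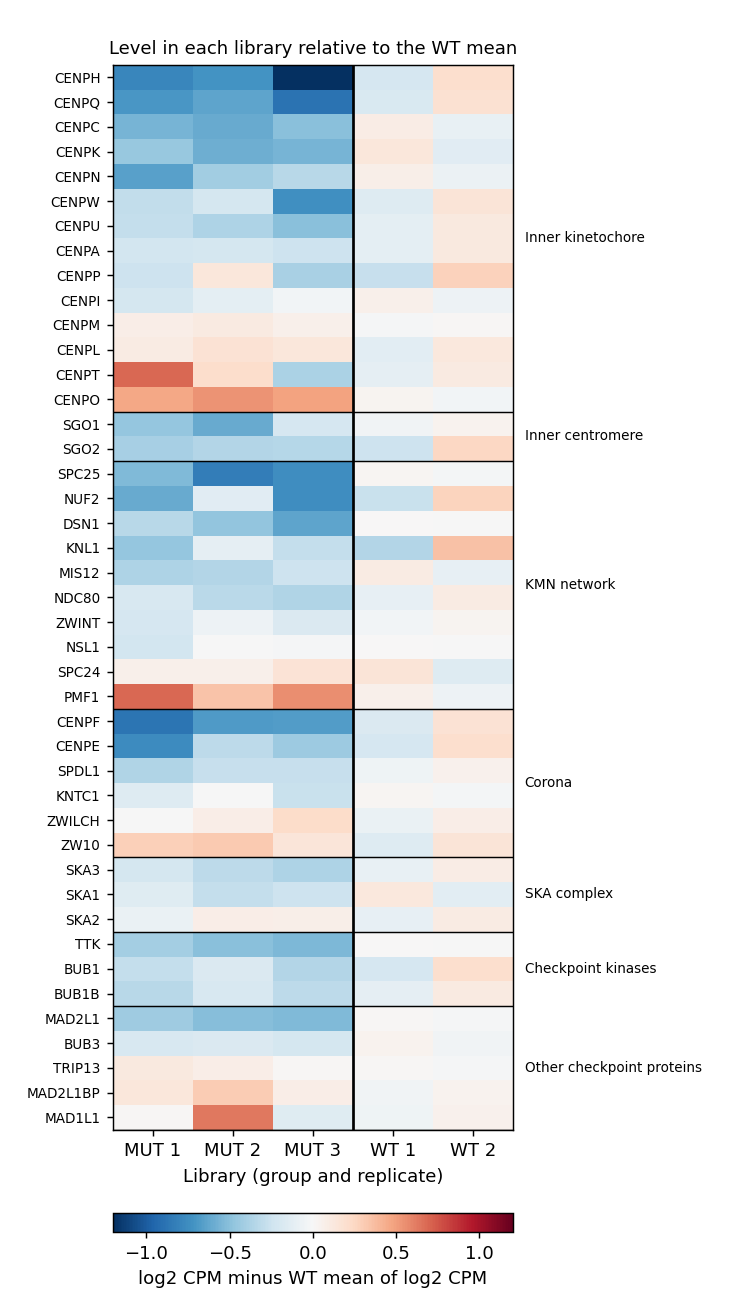
Level of each gene in each library, as log2 CPM minus the mean log2 CPM of the 2 WT libraries (colour; blue is below the WT mean), with the 3 MUT libraries left of the line and the 2 WT libraries right of it. CENPF, SPC25, DSN1, TTK and MAD2L1 are below the WT mean in all MUT libraries, CENPO and PMF1 above it, and KNL1 and SGO2 differ between the WT libraries.

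In the corona 3 of 6 genes fell and none rose (12.9% of all tested genes fell and 10.0% rose), with a class median of -0.22. CENPF, a large coiled-coil protein that binds the dynein regulators NDE1 and NDEL1, had 364, 417 and 422 CPM in MUT and 596 and 754 CPM in WT (log2 fold change -0.75, SE 0.105, edgeR adjusted p = 2.31e-05). CENPE, the kinesin that carries chromosomes toward the spindle equator, had 82.7, 112 and 103 CPM in MUT and 121 and 162 CPM in WT, and fell 1.43-fold (edgeR adjusted p = 0.00401). Both genes kept MUT wholly below WT, and both had their highest value in WT replicate 2. SPDL1 (Spindly), the adaptor that brings dynein to the corona, had 98.9, 105 and 105 CPM in MUT and 123 and 132 CPM in WT, and fell 1.24-fold (edgeR adjusted p = 0.0275).

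The RZZ complex, named for ROD (KNTC1), ZW10 and ZWILCH, builds the corona's mesh, and none of its genes passed. KNTC1 had 90.8 to 109 CPM in MUT and 108 to 111 CPM in WT, with an interval of its log2 fold change from -0.36 to 0.09. ZW10 had 62.4 to 70.0 CPM in MUT and 50.4 to 62.8 CPM in WT (-0.05 to 0.49), and ZWILCH had 97.0 to 114 CPM in MUT and 91.9 to 103 CPM in WT (-0.13 to 0.32). All 3 sets of libraries overlapped, and ZW10 also acts in membrane traffic outside mitosis. CENPE lost its call without WT replicate 2 (0.294), and SPDL1 without WT replicate 1 (0.0509), WT replicate 2 (0.231) or MUT replicate 1 (0.106), and with DESeq2 (0.127), upper-quartile scaling (0.0553) or library size only (0.0891).

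The SKA complex helps the NDC80 complex keep hold of shrinking microtubule ends. SKA3 had 147, 138 and 132 CPM in MUT and 160 and 182 CPM in WT, and fell 1.24-fold (edgeR adjusted p = 0.0246). SKA1 had 110 to 122 CPM in MUT and 123 to 147 CPM in WT, with an adjusted p of 0.127, and SKA2 had 137 to 153 CPM in MUT and 135 to 155 CPM in WT, with an interval from -0.19 to 0.22. SKA1 and SKA3 kept MUT below WT and SKA2 overlapped. SKA3 lost its call without WT replicate 2 (0.314), MUT replicate 2 (0.0543) or MUT replicate 3 (0.0682), and with DESeq2 (0.0952), upper-quartile scaling (0.052), library size only (0.0831) or thinned libraries (0.0565).

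All 3 genes of the checkpoint kinase class fell (12.9% of all tested genes did), with a median log2 fold change of -0.30. TTK (MPS1), the kinase that starts the checkpoint at unattached kinetochores, had 158, 148 and 144 CPM in MUT and 210 and 210 CPM in WT (log2 fold change -0.49, SE 0.0931, edgeR adjusted p = 0.000665). Its groups were far apart for their spread. BUB1, which marks centromeric histones and recruits the shugoshins, had 205, 221 and 197 CPM in MUT and 218 and 288 CPM in WT (-0.30, SE 0.106, edgeR adjusted p = 0.0452). BUB1B (BUBR1), a pseudokinase subunit of the checkpoint's inhibitor complex, had 157, 173 and 159 CPM in MUT and 184 and 212 CPM in WT (-0.29, SE 0.0974, edgeR adjusted p = 0.0354). For BUB1, MUT replicate 2 exceeded WT replicate 1. Without WT replicate 2 the log2 fold changes were -0.06 (0.778) for BUB1 and -0.16 (0.396) for BUB1B, and both calls also ended without MUT replicate 1 (0.15 and 0.14) or MUT replicate 3 (0.126 and 0.0804). They ended as well with DESeq2 (0.12 and 0.11), upper-quartile scaling (0.0855 and 0.0718), library size only (0.129 and 0.112) and the gene-span trend removed (0.0607 and 0.0623), and that of BUB1 with limma-voom (0.0565), so TTK alone of the 3 kept its call throughout.

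Among the other checkpoint proteins 1 of 5 fell (12.9% of all tested genes did), and the class median was 0.07. MAD2L1 (MAD2), which changes shape to capture the activator of the anaphase-promoting complex, had 189, 177 and 176 CPM in MUT and 256 and 252 CPM in WT (log2 fold change -0.49, SE 0.0913, edgeR adjusted p = 0.000506). MAD1L1 (MAD1), the platform on which MAD2 is converted, had 14.6, 22.9 and 13.1 CPM in MUT and 13.98 and 15.0 CPM in WT, with an interval from -0.32 to 0.75. MUT replicate 2 alone set its higher MUT mean. BUB3, the BUB kinases' partner in docking on KNL1, had 354 to 362 CPM in MUT and 399 to 421 CPM in WT, with no overlap and an adjusted p of 0.13. MAD2L1BP and the ATPase TRIP13, which together return MAD2 to its inactive form, had log2 fold changes of 0.17 (interval -0.07 to 0.41) and 0.07 (-0.14 to 0.27). MAD2L1BP had 81.1 to 95.1 CPM in MUT and 74.4 to 79.5 CPM in WT, and TRIP13 had 119 to 127 CPM in MUT and 116 to 119 CPM in WT.

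Ratios of the counts of 2 partner subunits within a library do not depend on how libraries are scaled, and were taken for 15 pairs of proteins that bind each other. A ratio of counts is not a ratio of proteins, since the lengths differ. The log2 ratio of SPC24 to SPC25 averaged -0.86 ± 0.175 in MUT (SD, n = 3) and -1.65 ± 0.188 in WT (SD, n = 2), a 1.74-fold shift toward SPC24. MIS12 to PMF1 averaged 1.67 ± 0.195 in MUT and 2.54 ± 0.0357 in WT, a 1.83-fold shift toward PMF1. CENPL to CENPN averaged -1.999 ± 0.141 in MUT and -2.60 ± 0.278 in WT, a 1.52-fold shift toward CENPL, and CENPO to CENPP averaged 3.19 ± 0.244 in MUT and 2.51 ± 0.449 in WT, a 1.59-fold shift toward CENPO. CENPQ to CENPU averaged -1.202 ± 0.0784 in MUT and -0.84 ± 0.0921 in WT, a 1.29-fold shift toward CENPU. In these 5 pairs the MUT libraries did not overlap the WT libraries, and p was 0.1 in a two-sided exact permutation test, which can go no lower with 3 against 2 libraries (0.3 after Benjamini-Hochberg adjustment over the 15 pairs). Among single tested genes 25.3% had all MUT libraries below WT and 25.4% all above, and the share over other pairs was not computed, so nothing particular to these pairs is read from it. The MUT libraries also stood apart for CENPT to CENPW, DSN1 to NSL1 and MAD1L1 to MAD2L1 (exact permutation p = 0.2 each), and overlapped the WT libraries for the other pairs. Among those, BUB1 to BUB3 averaged -0.79 ± 0.0718 in MUT and -0.71 ± 0.339 in WT (exact permutation p = 0.8), and MAD2L1BP to TRIP13 -0.51 ± 0.109 in MUT and -0.61 ± 0.0876 in WT (exact permutation p = 0.4).

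**Figure D5:**
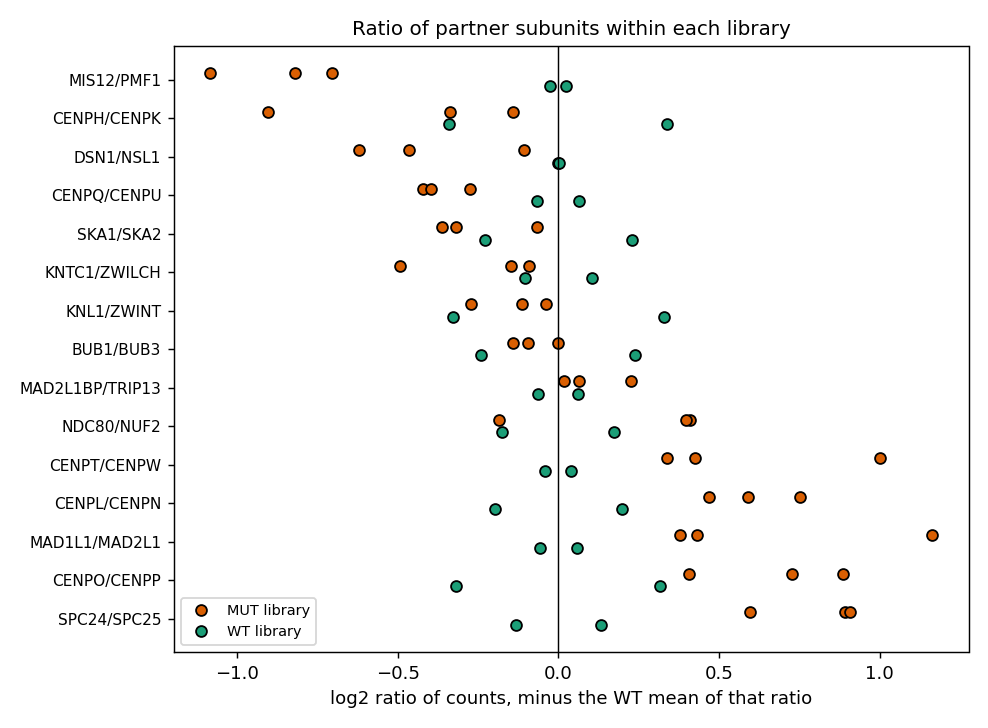
Log2 ratio of the counts of 2 partner subunits in each library, minus the mean of that ratio over the 2 WT libraries, for 15 pairs (orange points for MUT, green points for WT). MUT libraries lie wholly to the right of WT for SPC24/SPC25, CENPO/CENPP and CENPL/CENPN and wholly to the left for MIS12/PMF1, while BUB1/BUB3 overlaps.

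Genes that work with the kinetochore but lie outside the set were called at shares near those of all tested genes. Of 49 tested partners (passenger complex, CENP-A loading, phosphatases, dynein and microtubule regulators) 7 fell (14.3%, against 12.9% of all tested genes) and 3 rose (6.12%, against 10.0%), with a median log2 fold change of -0.06. ITGB3BP, which encodes CENP-R, the remaining subunit of the CENP-O group, had 57.6, 62.1 and 59.3 CPM in MUT and 99.9 and 113 CPM in WT (-0.84, SE 0.114, edgeR adjusted p = 1.59e-05). KIF18A, a kinesin that restrains microtubule growth at kinetochores, fell 1.56-fold (edgeR adjusted p = 6.48e-05), PTTG1 (securin) 1.32-fold (0.00401) and the phosphatase PPP1CC, which opposes the checkpoint kinases on KNL1, 1.27-fold (0.00927). The 3 that rose were the microtubule stabiliser CLASP1 (1.26-fold), the PP2A regulatory subunit PPP2R5D (1.27-fold) and the dynactin subunit DCTN1 (1.29-fold), with adjusted p of 0.0321, 0.025 and 0.0227.

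Lists of G2 and M phase genes and of S phase genes outside the kinetochore also had medians below 0, and their part in the values above was not tested. Of 35 other G2 and M phase genes 11 fell (31.4%, against 12.9% of all tested genes) and 0 rose (against 10.0%), with a median log2 fold change of -0.18. The other 24 did not pass, and 9 of the 35 had a log2 fold change above 0. Among the 11 that fell, CDK1 had 250 ± 17.3 CPM in MUT (SD, n = 3) and 356 ± 38.7 CPM in WT (SD, n = 2), and CCNB2, ARHGAP11A and TOP2A fell 1.41-fold, 1.32-fold and 1.3-fold. Of 41 S phase genes 8 fell (19.5%, against 12.9% of all tested genes) and 1 rose (2.44%, against 10.0%), with a median of -0.13. The replication clamp PCNA fell 1.422-fold and the licensing inhibitor GMNN 1.55-fold, and the helicase subunit MCM2 rose 1.6-fold (edgeR adjusted p = 5.15e-05). The kinetochore set's own median was -0.30, and the differences between these medians were not tested.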

How the data were processed

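Ribosome-protected fragments of 25 to 35 nucleotides were taken from single ribosomes after MNase digestion and a sucrose gradient, per the labels' protocols. The deposited values are raw counts per gene for 17297 genes in 5 libraries. The submitters' processing notes name STAR 2.5.2b, cutadapt 4.6, DESeq2 1.42.0, FastQC 0.12.1 and the hg38 build. For the counting (tool, exons or coding part, shared reads, strand) the sources used here give nothing. Of the 43 genes, 12 overlap another protein-coding gene and 10 have a named pseudogene, so their values are less certain. Among the genes called in every fit, SPC25 overlaps NOSTRIN and CENPO overlaps ADCY3. CENPN and MAD2L1 have named pseudogenes, and CENPF and TTK have neither. BUB1B overlaps BUB1B-PAK6. RNA-seq libraries were not analysed here, so footprints are not split into mRNA level and ribosomes per mRNA.

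Counts were fitted in R 4.3.3 with edgeR 4.0.16 (TMM, filterByExpr with a minimum count of 10, quasi-likelihood F test, MUT over WT, 3 residual degrees of freedom, Benjamini-Hochberg over 11991 genes). All 43 genes passed the filter. CPM values use TMM-scaled library sizes, and standard errors and 95% intervals come from the F statistic. The test and the intervals use more than the 3 residual degrees of freedom, since edgeR adds prior ones estimated over all genes. The fit was run on simulated counts with a single dispersion shared by all genes, a check of the code. It does not measure the power for falls of the size seen here. Alternatives were DESeq2 1.42.0, limma-voom (limma 3.58.1), scaling by upper quartile, RLE or library size alone, other filters, thinning, a replicate block, each library left out and, added after seeing the files, removal of a gene-span trend. Named genes are all genes of the set, up to 4 genes of lowest p in each other list, and calls against a list's direction where 3 or fewer; 1 gene so named is not reported here. The genes, lists and pairs were chosen with earlier results of these data known. The labels do not say whether libraries are separate cultures, so p-values measure only the spread between them.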

Additional observations from a re-analysis of the deposited data

How the results depend on the processing

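Of 645 values (43 genes in 15 alternatives), 568 kept their direction and side of the threshold, 59 lost a call, 9 gained one and 9 changed sign, none of these with a call. KNL1, MIS12, NDC80 and PMF1 each passed in at least 1 alternative. With DESeq2, 519 genes were higher and 846 lower over the whole table, and 10 genes of the set fell. With library size only, 13 fell and 2 rose (CENPO and PMF1) and the set's median was -0.22. With libraries left out in turn, genes lower over the whole table ranged from 732 to 1339 and higher from 509 to 1089, genes of the set that fell from 7 to 19, and the set's median from -0.39 to -0.17. Class medians ranged from -0.48 to -0.16 for checkpoint kinases, -0.32 to -0.15 for the KMN network and -0.076 to 0.099 for other checkpoint proteins. Log2 fold changes of genes that changed sign ranged from -0.45 to 0.14 for CENPP, -0.080 to 0.45 for CENPT, -0.051 to 0.25 for SPC24, -0.64 to 0.088 for KNL1, -0.077 to 0.13 for SKA2 and -0.076 to 0.38 for MAD1L1. The causes were not tested.

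Deviations of same-numbered libraries from their group means correlated at 0.08 (number 1) and 0.15 (number 2). The deviations of the WT libraries mirror each other (correlation -1), so these values cannot decide whether same-numbered libraries were handled together. With the replicate block, in which MUT replicate 3 stands alone, 21 genes of the set fell, with 19 of the 20 among them (CENPW had an adjusted p of 0.101), and SKA2 had -0.0022. With a gene-span trend removed 19 fell (18 of the 20). Calls over all genes in both fits are not set beside these counts, so nothing particular to the set is read from them. The planned correction for protein length and footprint densities per codon were not run, since no protein lengths were used here. With at most 3 libraries a group and 2095217 counts in the smallest, changes of the less counted genes, such as CENPT, CENPP and MAD1L1, were not detectable at this depth unless large.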
